A study of Homo sapiens with 27 samples.

Results

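The genes described here are 10 genes that set the threshold of cell death in blood cells: BCL2, BCL2A1, BCL2L1 and MCL1, which protect cells, BCL2L11, BBC3 and PMAIP1, which oppose them, the inhibitors of apoptosis BIRC2 and BIRC3, and CFLAR, which blocks death receptors. They were chosen by name, as the rows of both deposited count tables whose Ensembl identifier carries one of these symbols, and all 10 were found among the 20453 genes of each table. The cells were THP-1, a human monocytic leukaemia line, turned into macrophage-like cells by the phorbol ester PMA at 10 ng/ml over 24 h and then moved to medium without it. They were next incubated for 3 h in 1 of 3 ways, and each group had the same PMA step and the same 3 h. The vehicle group received ethanol in PBS, the LPS group 100 ng/ml of lipopolysaccharide, the endotoxin sensed by Toll-like receptor 4, and the LPS+Dex group LPS together with 1 µM of dexamethasone, a synthetic glucocorticoid. Dexamethasone was never given without LPS, and what it does is seen only on top of LPS. Poly(A) RNA-seq (4 libraries per group) and ribosome profiling, which sequences the mRNA fragments covered by ribosomes (5 libraries per group), were made from the same cells per the labels. THP-1 is a single leukaemia line, which limits it as a model of a normal macrophage.

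Proteins of the BCL2 family decide whether the outer mitochondrial membrane is opened. The pro-survival members hold the pore formers BAX and BAK1 in check, and the BH3-only proteins bind the pro-survival members and release that block. Each BH3-only protein has its preferred partners: NOXA, the product of PMAIP1, binds chiefly MCL1 and the BCL2A1 protein, while BIM (BCL2L11) and PUMA (BBC3) bind all of them. The cellular IAPs encoded by BIRC2 and BIRC3 are ubiquitin ligases of the TNF receptor complexes that favour NF-kB signalling over death and restrain the kinase NIK. CFLAR encodes c-FLIP, a relative of caspase-8 without its full activity that stops the death receptor complex, and several of these genes, BCL2A1, BIRC3 and CFLAR among them, are classical NF-kB targets in macrophages.

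RNA libraries held 19 to 30.7 M counts and footprint libraries 11.5 to 26.1 M. All 10 monocyte and macrophage markers examined had a mean above 5 CPM (counts scaled to a library of 1 M, with library sizes scaled by the TMM method) over the libraries of each assay. Their summed RNA level was 4150 to 4480 CPM with vehicle, 3050 to 3320 with LPS and 3210 to 3230 with LPS+Dex. Of 10 markers of other cell types 7 had a mean under 1 CPM over the libraries of each assay, and EPCAM and HBB were at 0 in every RNA library. PECAM1, which monocytes also express, was the highest at a mean of 341 CPM with vehicle, 141 with LPS and 157 with LPS+Dex in RNA. COL1A1, a collagen gene of fibroblasts, was at 5.9, 8.54 and 24.1 CPM in the same order and rose with LPS and again with dexamethasone in RNA. The part of these markers in the results was not tested. In each group the footprint library numbered 4 stood apart for these genes. It lay above the other 4 libraries for 4 of the 10 genes and below them for 4 with vehicle, above for 5 and below for 5 with LPS, and above for 2 and below for 7 with LPS+Dex. Footprint results are therefore given also without the 3 libraries numbered 4, and with the replicate number as a term of the fit (a block), wherever either changes a call. The vehicle RNA libraries were uneven as well, over all genes. The chi-square per degree of freedom between 2 libraries was 11.8 for numbers 1 and 2 and 13.8 for 3 and 4. For the other vehicle pairs it was 30.3 to 81.6, against 7.15 to 35.3 with LPS and 3.34 to 18.3 with LPS+Dex. The part of this in the results was not tested. A gene is said to have risen or fallen, or to be called, where its Benjamini-Hochberg adjusted p over all genes tested was under 0.05 in edgeR's quasi-likelihood test. In whole cultures, fewer cells making an mRNA and less of it per cell cannot be told apart. Whether replicates were separate cultures is not stated in the labels, so a p-value here measures the spread of these samples and may be technical.

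LPS against vehicle, the first comparison, gives the effect of endotoxin on the genes of survival and of death. In RNA-seq all 10 genes rose, where 62.2% of the 13327 genes tested were called and 28.6% rose. Their log2 fold changes ran from 0.63 to 4.89 with a median of 1.93, against -0.05 over all genes. For 8 of the 10 every LPS library lay above every vehicle library, as it did for 24.4% of all genes, and the groups overlapped for BCL2L11 and MCL1. In footprints 9 of the 10 rose, where 52.6% of 12197 genes were called and 25.4% rose, with a median of 2.04 against -0.04. For those 9 the libraries did not overlap, which held for 19.9% of all genes in that direction. Genes of protection and of death thus stood on the same side, and the largest rise of all 10 belonged to a BH3-only gene, PMAIP1.

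**Figure D1:**
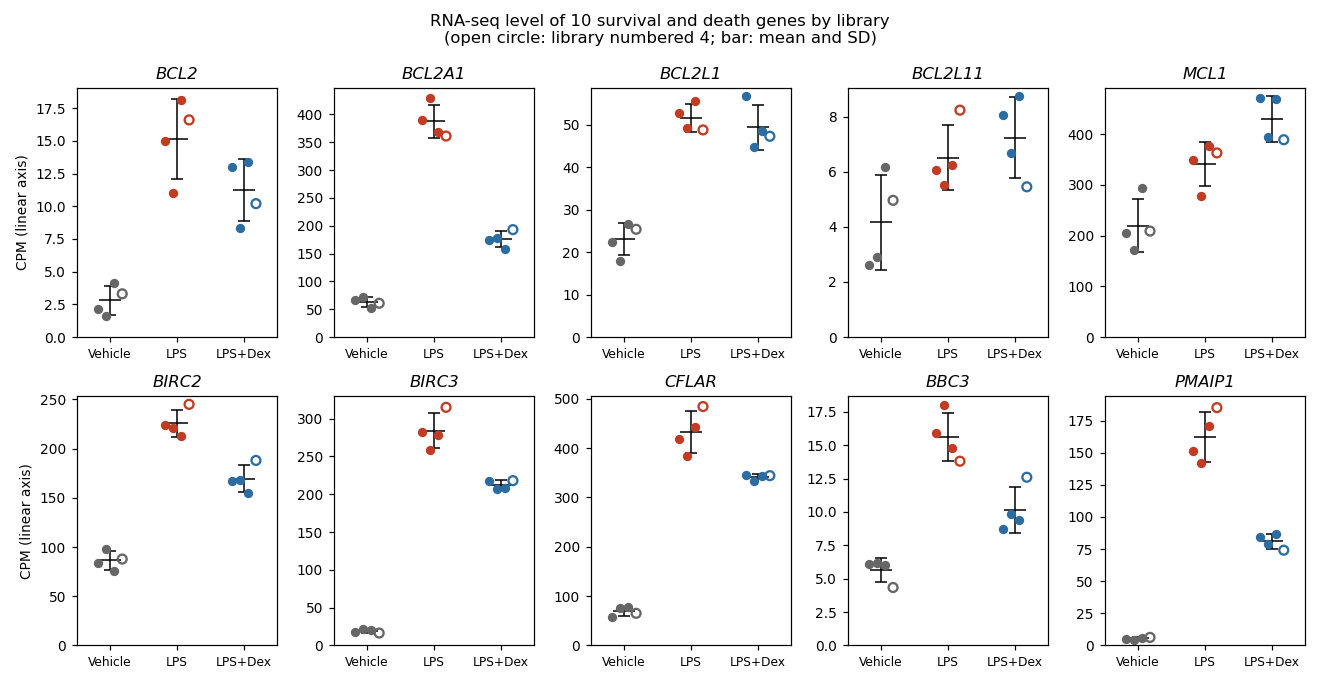
RNA-seq level in CPM (linear axis from 0) of each gene in each of 12 libraries, by treatment; points are libraries, the open circle is the library numbered 4, and the bar gives mean and SD. PMAIP1 goes from 4.25 to 6.27 CPM with vehicle to 142 to 185 with LPS and 74.1 to 86.5 with LPS+Dex, while MCL1 is highest with LPS+Dex.

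Among the pro-survival members of the BCL2 family, BCL2A1, an inducible protector of myeloid cells, had the largest value. The 95% intervals of BCL2 (1.86 to 2.96 in RNA, 1.76 to 2.93 in footprints) took in the BCL2A1 values, so the order of the 2 is not settled. BCL2A1 (ENSG00000140379; GRCh38.p14, chromosome 15, 79960892 to 79971196) had 66.6, 72.5, 52.8 and 60.8 CPM in the 4 vehicle RNA libraries and 390, 429, 369 and 361 CPM in the LPS libraries. Every LPS library lay far above every vehicle library, a rise of 2.62 ± 0.10 on the log2 scale (SE; adjusted p = 4.8e-11). Its footprints went from 45.2, 58.2, 52.9, 72.5 and 54.4 CPM to 293, 339, 380, 469 and 283 CPM, a rise of 2.64 ± 0.16 (adjusted p = 5.6e-09). In both footprint groups the library numbered 4 was the highest.

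BCL2 (ENSG00000171791; chromosome 18, 63123346 to 63320090), the founding member of the family, had 1.65 to 4.15 CPM in vehicle RNA libraries and 11 to 18.1 with LPS, a rise of 2.41 ± 0.26 (adjusted p = 1.9e-06). Its footprints rose by 2.34 ± 0.28, from 2.99 to 6.01 CPM to 14 to 30.9 CPM, and the library numbered 4 was the lowest in both groups. With 40 to 143 counts per vehicle RNA library it was one of the less deeply counted genes of the set. BCL2L1 (ENSG00000171552; chromosome 20, 31664452 to 31723963), which encodes the protective BCL-XL and, by splicing, a pro-death form, rose by 1.16 ± 0.12 in RNA and by 1.21 ± 0.10 in footprints. The tables count reads per gene, so the 2 forms are not separated.

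MCL1 (ENSG00000143384; chromosome 1, 150574558 to 150579610), whose protein is short-lived and must be made continuously, had the smallest rise among the protectors. Its RNA stood at 206, 171, 293 and 209 CPM with vehicle and 349, 278, 376 and 363 CPM with LPS, and the groups overlapped because vehicle library 3 lay above LPS library 2. The rise of 0.64 ± 0.14 passed the test (adjusted p = 0.0016). Footprints of MCL1 were 621, 580, 597, 1080 and 496 CPM with vehicle and 832, 857, 806, 1270 and 859 CPM with LPS. Here the vehicle library numbered 4 lay above 4 of the 5 LPS libraries, and the value of 0.45 ± 0.22 did not pass (adjusted p = 0.11). With the replicate block it was 0.49 ± 0.07 and passed (adjusted p = 9.4e-06), and without the 3 libraries numbered 4 it was 0.54 ± 0.06 (adjusted p = 4.9e-08), with no overlap between 496 to 621 CPM and 806 to 859 CPM.

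The BH3-only genes, which carry the opposite function, included the largest of the 10 values in RNA. The smallest, that of BCL2L11 (0.63), was level with that of the protector MCL1 (0.64). PMAIP1 (ENSG00000141682; chromosome 18, 59899996 to 59904305) had 5.36, 4.25, 5.89 and 6.27 CPM in the vehicle RNA libraries and 151, 142, 171 and 185 CPM with LPS, a 29.6-fold rise (log2 4.89 ± 0.13, adjusted p = 1.1e-12). Its footprints rose 28.5-fold, from 11.5, 11.9, 11.9, 13.2 and 13 CPM to 344, 390, 419, 205 and 394 CPM (log2 4.83 ± 0.25, adjusted p = 8.2e-10). The lowest of the LPS footprint libraries, the one numbered 4, was still more than an order of magnitude above every vehicle library. BBC3 (ENSG00000105327; chromosome 19, 47220824 to 47232860), a target of p53, rose by 1.46 ± 0.15 in RNA and by 1.34 ± 0.22 in footprints, from 4.34 to 6.19 CPM to 13.8 to 18 CPM in RNA.

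BCL2L11 (ENSG00000153094; chromosome 2, 111120914 to 111168445) was the least certain of the set in RNA. Its vehicle RNA libraries were uneven, at 2.6, 2.89, 6.18 and 4.96 CPM, and number 3 alone reached the LPS range. Its RNA lay between 2.6 and 6.18 CPM with vehicle and between 5.51 and 8.23 CPM with LPS, so the groups overlapped, and the rise of 0.63 ± 0.25 only just passed (adjusted p = 0.041). It did not pass when any 1 of 6 RNA libraries was left out (vehicle 1 or 2, LPS 1, 3 or 4, LPS+Dex 2; adjusted p between 0.05 and 0.13), or when only the 2 groups compared were fitted (adjusted p = 0.057). Its footprints rose by 0.65 ± 0.18 (adjusted p = 0.0059), from 2.64 to 3.63 CPM to 4.27 to 5.86 CPM with no overlap.

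The IAPs and CFLAR rose in both assays, and no LPS library of any of these genes overlapped a vehicle library. BIRC3 (ENSG00000023445; chromosome 11, 102317484 to 102339403) had 18.3, 21.9, 20.6 and 16.4 CPM with vehicle and 282, 259, 279 and 315 CPM with LPS in RNA-seq, a 14.7-fold rise (log2 3.88 ± 0.10, adjusted p = 6.6e-13). Its footprints went from 1.16, 1.81, 1.43, 0.905 and 1.49 CPM to 25.8, 25.5, 27.4, 22.2 and 24.3 CPM, an 18.1-fold rise (log2 4.17 ± 0.18). BIRC2 (ENSG00000110330; chromosome 11, 102347214 to 102378670), its neighbour on the chromosome and its closest paralog, rose 2.61-fold in RNA, from 76.1 to 98.5 CPM to 213 to 245 CPM. In footprints BIRC2 rose 3.35-fold, from 12.7, 12.1, 12.7, 12.9 and 13.8 CPM to 40, 42.4, 43.2, 48.1 and 42 CPM. The count of BIRC3 per count of BIRC2 went from 0.186 to 0.271 over the vehicle RNA libraries to 1.17 to 1.31 over the LPS libraries. How reads that match both genes were counted is not given in the sources used here, so their split between the 2 is uncertain.

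CFLAR (ENSG00000003402; chromosome 2, 201116164 to 201176687) had 57.9, 75.1, 78.9 and 65.1 CPM in vehicle RNA libraries and 419, 384, 442 and 484 CPM with LPS, a rise of 2.64 ± 0.10 (adjusted p = 3.7e-11). Its footprints went from 38.2, 47.1, 46.5, 42.1 and 36.2 CPM to 370, 370, 385, 408 and 355 CPM, a rise of 3.17 ± 0.09 (adjusted p = 9.6e-13). The long and short forms of c-FLIP are products of this 1 gene and were not separated in the counts.

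Promoter windows from RefSeq (GRCh38.p14), each of 250 bases before a start site and 50 after it, were found for 9 of the 10 genes, 14 windows in all, and MCL1 had no entry. The NF-kB consensus decamer, searched on both strands, was found in 2 windows, those of BIRC3 and CFLAR, which are shown for that reason with the matched bases in capitals, 5′ to 3′ on the plus strand. The BIRC3 stretch is the whole of the 250 bases before the start (chr11:102317234-102317483) and holds 2 matches, whose first bases lie 199 and 135 bases before the start. The CFLAR stretch is the match with 10 bases on each side (chr2:201118609-201118638), 97 bases before a start site at 201118716 that lies inside the annotated span of the gene.
BIRC3: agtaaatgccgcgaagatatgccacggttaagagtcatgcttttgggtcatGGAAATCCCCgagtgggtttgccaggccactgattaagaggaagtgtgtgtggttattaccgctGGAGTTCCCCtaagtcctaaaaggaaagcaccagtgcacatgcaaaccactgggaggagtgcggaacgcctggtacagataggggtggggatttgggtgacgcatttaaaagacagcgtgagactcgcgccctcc
CFLAR: cgcggggggcGGGGAATTCCgcagacagga
Of all 35116 windows of this length 11.3% held the decamer. The AP-1 motif TGANTCA, present in 7.71% of windows, was found for CFLAR (at another start site) and BBC3. The core of the interferon-stimulated response element, present in 3.57%, was found for BCL2A1 and BBC3, and its 2 matches in BBC3 overlap. The consensus of the glucocorticoid response element, present in 0.39%, was found in 0 of the 14 windows. These are matches of letters only, and binding was not measured.

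**Figure D2:**
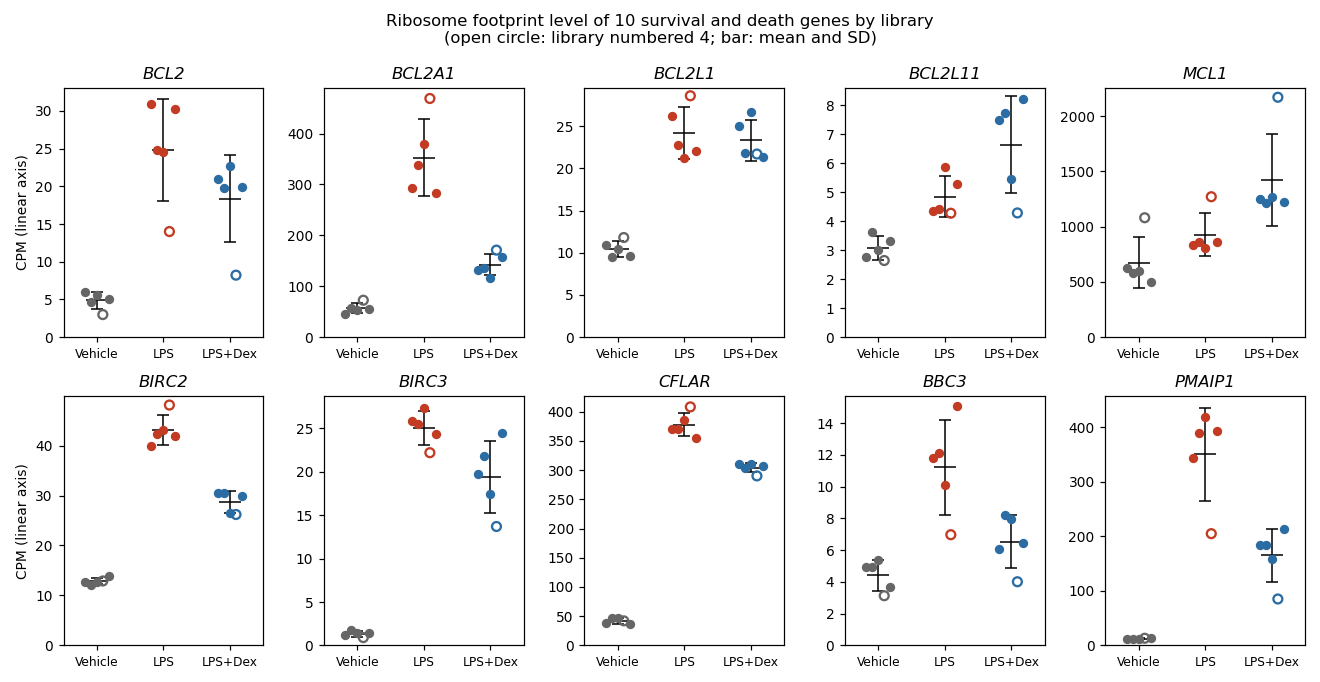
Ribosome footprint level in CPM (linear axis from 0) of each gene in each of 15 libraries, by treatment; points are libraries, the open circle is the library numbered 4, and the bar gives mean and SD. For MCL1 the open circles lie above the other libraries (1080, 1270 and 2170 CPM), and for BCL2, BCL2L11, BIRC3 and BBC3 they lie below them in every treatment.

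The second comparison sets LPS+Dex against LPS, the effect of the glucocorticoid on survival and death genes in stimulated cells. Genes of both functions fell. In RNA-seq 6 of the 10 fell (BCL2A1, BIRC2, BIRC3, CFLAR, BBC3 and PMAIP1), where 30.9% of all genes tested were called and 15.4% fell, and 0 of the 10 rose in edgeR's test or in DESeq2's (1 lay higher at an unadjusted p under 0.05, MCL1). The median log2 change of the 10 genes was -0.42, against 0.01 over all genes. The libraries did not overlap for these 6 or for MCL1, which lay higher, 7 in all, as they did for 34.2% of all genes. In footprints 5 fell (BCL2A1, BIRC2, CFLAR, BBC3 and PMAIP1), where 17.1% of genes were called and 7.99% fell, and for BCL2A1, BIRC2 and CFLAR, 3 of the 10, the libraries did not overlap, as for 6.49% of genes in that direction. In edgeR's test 0 rose, against 9.08% of all genes (2 lay higher at an unadjusted p under 0.05, MCL1 and BCL2L11), and in DESeq2's test 1 rose, MCL1. With the replicate block, and also without the 3 libraries numbered 4, 9 of the 10 were called in footprints, of which BCL2L11 and MCL1 rose, 7 fell and BCL2L1 was not called. The share of all genes called in these fits is not given here, so the 17.1% is not their background. Calls among the other pathway genes listed below also went up, from 18 to 30 with the block and 31 without those libraries.

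The larger falls were those of 1 protector and of its BH3-only antagonist. BCL2A1 RNA stood at 175, 178, 159 and 193 CPM with LPS+Dex, below every LPS library (361 to 429 CPM) and above every vehicle library (52.8 to 72.5 CPM), a fall of 1.14 ± 0.10 on the log2 scale against LPS (adjusted p = 6.5e-07). Its footprints were 132, 136, 117, 171 and 157 CPM and fell by 1.31 ± 0.16 (adjusted p = 2.3e-05). PMAIP1 RNA was 84.2, 78.7, 86.5 and 74.1 CPM, which is 0.498 of the LPS level (adjusted p = 6.2e-06). Its footprints were 185, 185, 159, 85.2 and 213 CPM and fell by 1.08 ± 0.22 (adjusted p = 0.0023). Those groups overlapped at 1 library, since LPS library 4 (205 CPM) lay below LPS+Dex library 5.

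MCL1 moved the other way. Its RNA with LPS+Dex was 471, 394, 469 and 389 CPM, each above every LPS library (278 to 376 CPM), but the value of 0.34 ± 0.14 did not pass (adjusted p = 0.094). It passed where only LPS and LPS+Dex were fitted (0.32, adjusted p = 0.028) and without vehicle library 3 (0.34, adjusted p = 0.025). Its footprints were 1250, 1210, 1270, 2170 and 1220 CPM, and LPS library 4 (1270 CPM) lay within their range. The value of 0.62 ± 0.23 did not pass either (adjusted p = 0.074). With the replicate block the footprint value was 0.60 ± 0.07 (adjusted p = 2.8e-06) and without the libraries numbered 4 it was 0.57 ± 0.06 (adjusted p = 6.8e-08). In those remaining libraries MCL1 footprints rose in 2 steps, from 496 to 621 CPM with vehicle to 806 to 859 with LPS and 1210 to 1270 with LPS+Dex, with no overlap. The count of PMAIP1 per count of MCL1 in RNA-seq went from 0.0201 to 0.0301 over the vehicle libraries to 0.434 to 0.51 with LPS and 0.179 to 0.2 with LPS+Dex. In footprints its median was 0.0198 with vehicle (0.0121 to 0.0262), 0.455 with LPS (0.161 to 0.52) and 0.147 with LPS+Dex (0.0392 to 0.174). The LPS and LPS+Dex ranges overlapped only at LPS library 4 (0.161). The count of PMAIP1 per count of BCL2A1 did not fall with dexamethasone. In RNA-seq its median was 0.0918 with vehicle, 0.425 with LPS (0.33 to 0.513) and 0.462 with LPS+Dex (0.385 to 0.543). In footprints it was 0.224, 1.15 (0.436 to 1.39) and 1.36 (0.499 to 1.4), with the low ends 0.436 and 0.499 in the libraries numbered 4. The count of BBC3 per count of BCL2A1 lay lower with LPS in RNA-seq. It was 0.0714 to 0.114 with vehicle, 0.0383 to 0.0419 with LPS and 0.0502 to 0.0656 with LPS+Dex, with no overlap. In footprints its medians were 0.0851, 0.0357 and 0.0462, and the ranges overlapped. For BCL2L11 per MCL1 the medians were 0.019, 0.0186 and 0.0171 in RNA-seq and 0.00502, 0.0052 and 0.00598 in footprints.

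The IAPs and CFLAR had smaller values than BCL2A1 and PMAIP1. BIRC2 RNA was 167, 168, 155 and 188 CPM, a fall of 0.41 ± 0.08 (adjusted p = 0.0019), and its footprints, at 30.5, 30.5, 26.5, 26.2 and 30 CPM, fell by 0.58 ± 0.07 (adjusted p = 2.7e-05). CFLAR RNA was 346, 334, 343 and 344 CPM, below the 384 CPM of the lowest LPS library, a fall of 0.34 ± 0.09 (adjusted p = 0.013). CFLAR footprints, at 310, 304, 310, 290 and 307 CPM, fell by 0.31 ± 0.08 (adjusted p = 0.012). BIRC3 RNA was 217, 207, 208 and 218 CPM and fell by 0.42 ± 0.09 (adjusted p = 0.0018). For BIRC3 footprints -0.36 ± 0.15 missed the threshold (adjusted p = 0.13), and LPS+Dex library 5 (24.5 CPM) lay within the LPS range of 22.2 to 27.4 CPM. It passed with the block (-0.38, adjusted p = 0.0094) and without the libraries numbered 4 (-0.29, adjusted p = 0.031).

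**Figure D3:**
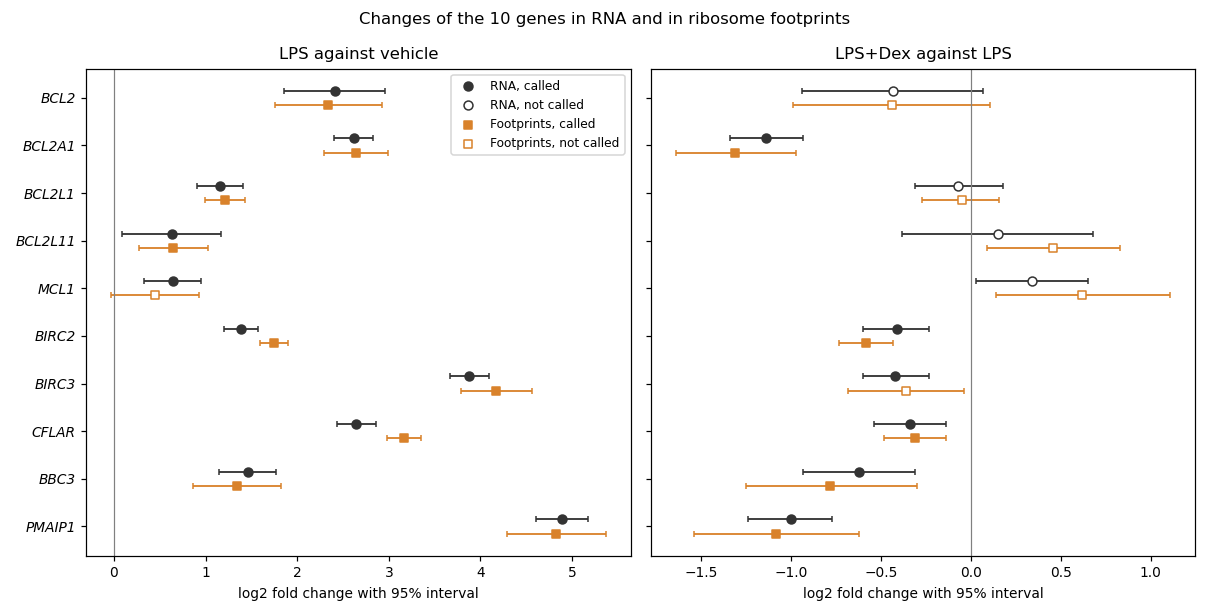
Log2 fold changes with 95% intervals of the 10 genes in RNA (circles) and in footprints (squares), for LPS against vehicle (left) and LPS+Dex against LPS (right); filled symbols have an adjusted p under 0.05. On the left all symbols lie above 0; on the right MCL1 and BCL2L11 lie above 0 and the other 8 genes below it.

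The remaining protectors and BH3-only genes divided. BBC3 RNA was 8.76 to 12.6 CPM with LPS+Dex, below the LPS range of 13.8 to 18, a fall of 0.62 ± 0.14 (adjusted p = 0.0042). BBC3 footprints fell by 0.78 ± 0.22 (adjusted p = 0.024), but did not pass without LPS footprint library 1, 2 or 5 or without LPS+Dex library 1 or 5 (adjusted p between 0.05 and 0.067). BCL2L1 was at 44.8 to 56.8 CPM against 48.8 to 55.6 with LPS in RNA, a value of -0.07 with a 95% interval from -0.31 to 0.18. BCL2 gave -0.43 ± 0.23 in RNA (adjusted p = 0.18) and -0.44 ± 0.26 in footprints (adjusted p = 0.3), and the footprint value passed with the block (-0.46, adjusted p = 0.0011) and without the libraries numbered 4 (-0.41, adjusted p = 0.0019).

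BCL2L11 gave 0.15 in RNA (95% interval -0.38 to 0.68) and 0.46 ± 0.17 in footprints (adjusted p = 0.086). The footprint value passed with the block (0.46, adjusted p = 0.025) and without the libraries numbered 4 (0.56, adjusted p = 0.0051). Its footprint libraries with LPS+Dex lay at 7.49, 7.74, 5.46, 4.28 and 8.19 CPM against 4.33, 4.43, 5.86, 4.27 and 5.29 CPM with LPS, and LPS+Dex libraries 3 and 4 lay within the LPS range. Of the BH3-only genes, then, PMAIP1 and BBC3 fell with dexamethasone. No change of BCL2L11 was called in RNA, and in footprints a rise was called only in alternative fits.

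**Figure D4:**
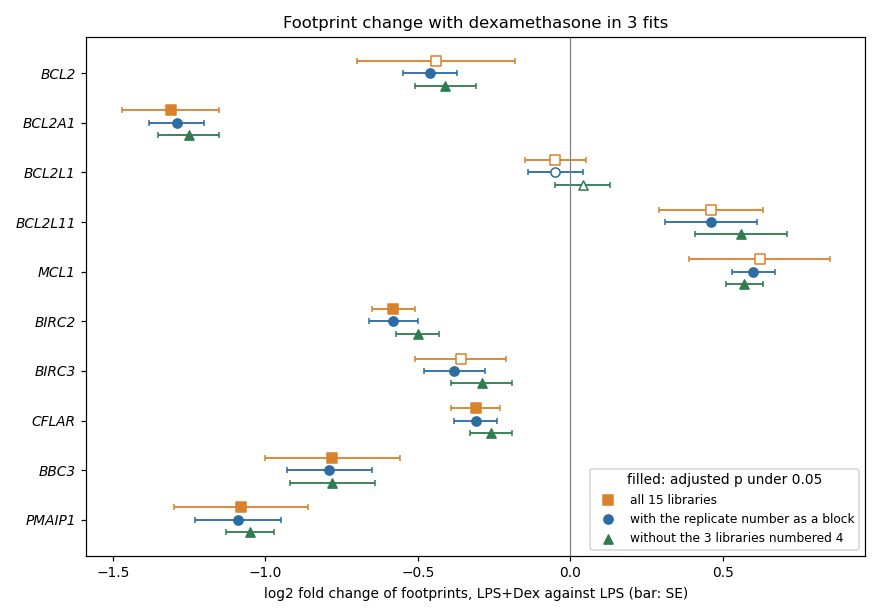
Footprint log2 fold change of LPS+Dex against LPS with its SE for the 10 genes in 3 fits: all 15 libraries, the same with the replicate number as a block, and without the 3 libraries numbered 4; filled symbols have an adjusted p under 0.05. For BCL2, BCL2L11, MCL1 and BIRC3 the symbol is filled in the second and the third fit only. The SE narrows in both, though for BCL2L11 only from 0.17 to 0.15. In the third fit the BCL2L11 value is 0.56 in place of 0.46, and that of BIRC3 is -0.29 in place of -0.36.

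The third comparison, LPS+Dex against vehicle, gives the change with both agents. In RNA-seq all 10 genes were above vehicle, where 60.2% of genes were called and 29.2% were higher, with a median log2 change of 1.29 against -0.03 over all genes. In footprints 9 were above vehicle, where 46.4% were called and 24.4% were higher. The exception was BBC3 (0.56 ± 0.23, adjusted p = 0.055), which passed with the block (0.56, adjusted p = 0.004) and without the libraries numbered 4 (0.59, adjusted p = 0.0016). PMAIP1 remained 14.8-fold above vehicle in RNA and 13.5-fold in footprints. BIRC3 remained 11-fold and 14-fold above it, CFLAR 4.94-fold and 7.24-fold, BIRC2 1.96-fold and 2.24-fold, and BCL2A1 2.79-fold and 2.52-fold. For MCL1 and BCL2L11 the values were larger than with LPS alone. MCL1 was 1.96-fold and 2.11-fold above vehicle, against 1.55-fold and 1.37-fold with LPS. BCL2L11 was 1.71-fold and 2.16-fold above it, against 1.55-fold and 1.57-fold. Between LPS+Dex and LPS, edgeR's test with all libraries and no block called neither gene. This comparison shares its samples with the other two.

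Translational efficiency (TE), the footprint change minus the RNA change, was tested in 1 fit over all 27 libraries. With LPS it rose for 1 of the 10 genes, CFLAR, where 1.51% of 13679 genes were called. The CFLAR value was 0.55 ± 0.13 (95% interval 0.29 to 0.82, adjusted p = 0.021), and the mean footprint level per mean RNA level went from 0.607 with vehicle to 0.873 with LPS and 0.89 with LPS+Dex. It did not pass without RNA vehicle library 2 or 3 or RNA LPS library 1 or 2 (adjusted p between 0.053 and 0.063). Against vehicle, LPS+Dex gave 0.58 ± 0.13 for CFLAR (adjusted p = 0.015), which passed whichever single library was left out, and 1.54% of genes were called there. BIRC2 gave 0.39 ± 0.12 with LPS (95% interval 0.15 to 0.63, adjusted p = 0.099). BIRC2 passed with the replicate block (0.39, adjusted p = 0.028) and without RNA vehicle library 3 (0.45, adjusted p = 0.047), where CFLAR did not. Its footprint per RNA level went from 0.149 to 0.191.

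For the other 8 genes no change in TE with LPS was detectable, and the intervals say how large a change could have gone unseen. With all libraries they were narrow for BCL2L1 (-0.24 to 0.39) and BCL2A1 (-0.34 to 0.44) and wide for BCL2 (-0.83 to 0.76), BBC3 (-0.70 to 0.52), BCL2L11 (-0.62 to 0.70), MCL1 (-0.72 to 0.40), PMAIP1 (-0.59 to 0.55) and BIRC3 (-0.11 to 0.76). Without the 3 footprint libraries numbered 4 the values were -0.04 ± 0.15 for MCL1, 0.17 ± 0.15 for PMAIP1 and 0.31 ± 0.16 for BIRC3. None of these was called. The SE for BCL2L1 and BCL2A1 was 0.15 there. It stayed larger for BCL2 (0.28), BBC3 (0.21) and BCL2L11 (0.30). With LPS+Dex against LPS 0 of the 10 were called by edgeR (0 also at an unadjusted p under 0.05), where 0.0366% of genes were (5 in all). The largest values there were those of BCL2L11 (0.32, interval -0.33 to 0.96) and MCL1 (0.28, interval -0.28 to 0.84), and CFLAR gave 0.03 (interval -0.23 to 0.29).

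**Figure D5:**
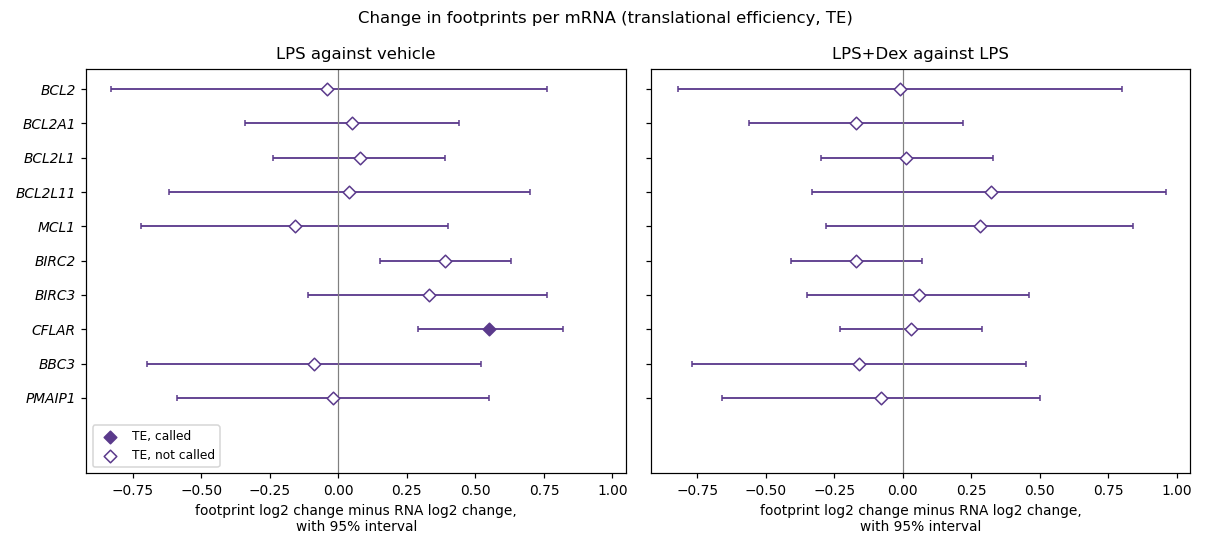
Change in translational efficiency (footprint log2 change minus RNA log2 change) of the 10 genes with 95% intervals, for LPS against vehicle (left) and LPS+Dex against LPS (right); filled symbols have an adjusted p under 0.05. CFLAR with LPS (0.55) is the filled symbol, and all intervals on the right include 0.

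Around these 10 genes stand the other parts of the death machinery, given here as lists. Over all genes tested in RNA, 62.2% were called with LPS (28.6% rose) and 30.9% with dexamethasone (15.4% fell), and nothing particular to a list is read from its counts. Of the other BCL2 family genes, which are pore formers, BH3-only proteins, the protectors BCL2L2 and BCL2L10, and the mitophagy receptors BNIP3 and BNIP3L, 10 of 12 were tested, and with LPS 2 rose and 2 fell in RNA (median -0.04). BID, the BH3-only protein that caspase-8 activates, rose by 1.12 ± 0.07 in RNA and 0.95 ± 0.19 in footprints, and BAD, a BH3-only protein controlled by phosphorylation, fell by 0.71 ± 0.11 and 1.19 ± 0.15. With dexamethasone 1 rose and 2 fell in RNA: BIK rose by 1.21 ± 0.17 and BMF fell by 1.21 ± 0.16, and both moved alike in footprints (0.95 ± 0.14 and -1.05 ± 0.33). BIK and BMF encode BH3-only proteins as well.

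Of the other IAPs and their antagonists 7 of 8 were tested in RNA, and with LPS 3 rose and 1 fell. XAF1, an interferon-induced antagonist of XIAP, rose by 4.09 ± 0.13 in RNA and by 2.21 ± 0.47 in footprints, where the value without the libraries numbered 4 was 3.22. BIRC5 (survivin), which is made in dividing cells, fell by 0.90 ± 0.14 and 0.99 ± 0.26. With dexamethasone 1 rose and 2 fell, and XIAP, the direct caspase inhibitor, fell in RNA by 0.78 ± 0.25 and in footprints by 0.29 ± 0.09.

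Among 20 death receptors, adaptors and caspases 11 rose and 7 fell in RNA with LPS, and with dexamethasone 2 rose and 8 fell. TRAF1, an adaptor that binds the cellular IAPs, rose by 4.81 ± 0.13 in RNA and 5.06 ± 0.11 in footprints with LPS and fell by 0.99 ± 0.11 and 0.90 ± 0.09 with dexamethasone. CASP6, an executioner caspase, fell with LPS by 1.69 ± 0.21 in RNA and 1.32 ± 0.25 in footprints. APAF1, the core of the apoptosome, rose with dexamethasone by 0.62 ± 0.13 and 0.82 ± 0.11.

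Of the 7 NF-kB subunits and genes of the NIK branch 6 rose and 1 fell in RNA with LPS (median 1.58), and with dexamethasone 0 rose and 3 fell. REL, the subunit c-Rel, had the largest rise of them (3.08 ± 0.19 in RNA, 3.99 ± 0.15 in footprints) and the largest fall (-1.07 ± 0.18 and -0.92 ± 0.14). Of 9 genes of the p53, FOXO, stress and E2F pathways, which act on BH3-only genes, 3 rose and 3 fell with LPS, and 4 rose and 1 fell with dexamethasone in RNA. The 9 include MDM2, which restrains p53, and CDKN1A, a p53 target that is itself no inducer of them. MDM2 rose by 1.11 ± 0.16 in RNA with LPS, and DDIT3 (CHOP), a factor of the stress response, fell by 0.52 ± 0.13. FOXO1, which drives BCL2L11 in several cell types, rose with dexamethasone by 2.59 ± 0.26 in RNA and 2.91 ± 0.16 in footprints.

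Of 6 genes of MCL1 protein turnover 5 rose and 0 fell with LPS, and 0 rose and 2 fell with dexamethasone in RNA. In footprints 3 rose and 0 fell with LPS, and 1 rose and 1 fell with dexamethasone. With the block 5 rose and 0 fell with LPS, and 1 rose and 3 fell with dexamethasone. Without the libraries numbered 4 it was 5 and 0 with LPS, and 1 and 2 with dexamethasone. HUWE1, a ubiquitin ligase of MCL1, rose by 1.89 ± 0.11 in RNA and 1.49 ± 0.09 in footprints with LPS and fell by 0.83 ± 0.11 and 0.57 ± 0.09 with dexamethasone. Over all 6 lists 44 of 59 genes tested were called in RNA with LPS (74.6%, against 62.2% of all genes; 30 rose, 14 fell) and 26 with dexamethasone (44.1%, against 30.9%; 8 rose, 18 fell). In footprints 39 and 18 of 58 were called (67.2% and 31%, against 52.6% and 17.1% of all genes), and with the block 30 in place of the 18, or 31 without the libraries numbered 4. For the block and for the fit without those libraries the share over all genes is not given.

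The genes whose RNA pattern was most like that of a given gene were sought among 8458 genes that averaged 5 CPM or more in RNA-seq and in footprints, as Pearson's r of log2 CPM over the 12 RNA libraries, which fall into 3 treatment groups. BCL2A1 was followed most closely by VEGFC (0.997), NECTIN2 (0.997) and TMEM132A (0.996), whose r over the 15 footprint libraries was 0.919, 0.869 and 0.483. BIRC3 was followed by GCH1 (0.999), CCL4 (0.998) and TIFA (0.998), with 0.98, 0.969 and 0.988 in footprints. CCL4 has near-identical copies, so its counts are uncertain. MCL1 was followed by SNX9 (0.981), PPP3CA (0.978) and AZIN1 (0.977), with 0.791, 0.652 and 0.216 in footprints. These values describe likeness over shared treatment groups and carry no test.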

How the data were processed

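The deposited values are raw counts per Ensembl gene, unpooled and unscaled, for RNA-seq (12 libraries, 19 to 30.7 M counts) and for footprints (15 libraries, 11.5 to 26.1 M). The tools were featureCounts 2.0.1, STAR 2.7.10a, DESeq2 1.26.0 and, for footprints, Bowtie2 2.4.5, on GRCh38/hg38, per the submitters' processing notes. The RNA kit keeps strand, per the labels' protocols. Which annotation and strand setting the counting used, and how it treated multiply matching reads, is not given in the sources used here.

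Tests used edgeR 4.0.16 (R 4.3.3) on these counts: filterByExpr (minimum count 10, minimum total 15), TMM scaling, quasi-likelihood F test (2-sided) and Benjamini-Hochberg adjustment over all genes tested. CPM levels and log2 fold changes were computed from the deposited counts. Each assay was fitted with 3 treatment groups, and TE as an interaction over 27 libraries. All changes are relative to the average gene. SE is the log2 fold change divided by the root of F, and intervals are 95%. The code was tested on simulated counts. DESeq2 1.42.0, another scaling, other filters, the replicate block and leaving out libraries were alternatives.

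Named are the 10 genes and, from each of 6 lists of other pathway genes, for LPS against vehicle and LPS+Dex against LPS, the largest rise and the largest fall in RNA among genes called in both assays in the same direction. For BCL2A1, BIRC3 and MCL1 the 3 genes of most similar RNA pattern are also named. The genes, the lists and the rule were chosen with earlier results of these data known. Identifiers and coordinates are from RefSeq (GRCh38.p14), and gene length was not used.

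Equal replicate numbers are not said by the labels to belong together. Deviations from the group means correlated above 0.1 in 15 of 15 footprint pairs of equal number (median r = 0.271) and in 34 of 60 pairs of unequal number. With the libraries numbered 4 left out it was 3 of 12 and 2 of 36, so the pairing rests on those libraries. In RNA-seq it was 7 of 12 and 13 of 36.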

Additional observations from a re-analysis of the deposited data

Results flagged for a closer look

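Each gene was examined for a library far from the others of its group, in 60 groups of 4 or 5 libraries (gene by assay by treatment). Chance alone singles out about 1 group in 20. Here 5 were singled out, and 4 of them are footprint libraries numbered 4.

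MCL1 had its highest footprint level in the library numbered 4 in all 3 treatments. With vehicle it was 1080 CPM, where the nearest of the others had 621. With LPS it was 1270 CPM (nearest 859), and with LPS+Dex 2170 CPM (nearest 1270). BCL2 had its lowest LPS+Dex footprint level there, 8.22 CPM, where the nearest had 19.8. In RNA-seq BBC3 had 4.34 CPM in vehicle library 4, where the others lay between 6 and 6.19 CPM. The cause of these values was not tested.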

How the results depend on the processing

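All 10 genes kept their direction in RNA-seq in every alternative run. With the replicate block, which rests on the pairing of the footprint libraries numbered 4, the number of the 10 genes called in footprints with LPS+Dex against LPS was 9 in place of 5, as it was (9) without those 3 libraries, and 2 in place of 1 were called in TE with LPS. Among the other pathway genes the footprint calls went from 18 to 30 and 31 in the same fits. The share over all genes in these fits is not given. In RNA-seq, where 7 of 12 pairs of equal number correlated above 0.1 and the numbers were not taken as pairs, the block added calls for BCL2 (-0.42, adjusted p = 0.031) and MCL1 (0.34, adjusted p = 0.011) with dexamethasone and ended none. DESeq2's own test added MCL1 footprints with dexamethasone (0.61, adjusted p = 0.042) and BBC3 footprints against vehicle (0.57, adjusted p = 0.034), and fitting only the groups compared added MCL1 RNA with dexamethasone (0.32, adjusted p = 0.028), as did leaving out vehicle RNA library 3 (0.34, adjusted p = 0.025). Leaving out each library in turn gave 0 to 1 genes called in TE with LPS. For footprints of MCL1, 1 library decided the call at times: without vehicle library 4 the LPS value was 0.69 (adjusted p = 0.0069), and without LPS library 4 the dexamethasone value was 0.76 (adjusted p = 0.028).

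Values that changed sign were all small and uncalled, and the cause was not tested. BCL2L1 footprints with dexamethasone were 0.04 without the libraries numbered 4 and ran from -0.10 to 0.01 when single libraries were left out. In TE with dexamethasone, DESeq2's size factors gave -0.01 for BCL2L1 and -0.00 for CFLAR, and no filter gave 0.00 for BCL2. Without the libraries numbered 4 TE of BCL2 was 0.03 (LPS), 0.03 (dexamethasone) and 0.05 (LPS+Dex against vehicle), and that of PMAIP1 0.17 (LPS) and 0.11 (LPS+Dex against vehicle). Leaving out single libraries, TE with LPS ran from -0.29 to 0.14 for BCL2, -0.04 to 0.16 for BCL2A1, -0.21 to 0.20 for BCL2L11, -0.32 to 0.08 for MCL1, -0.22 to 0.05 for BBC3 and -0.10 to 0.14 for PMAIP1. With dexamethasone it ran from -0.16 to 0.18 for BCL2, -0.03 to 0.09 for BCL2L1, -0.04 to 0.17 for BIRC3, -0.03 to 0.07 for CFLAR and -0.23 to 0.09 for PMAIP1. Against vehicle, LPS+Dex ran from -0.30 to 0.16 for BCL2, -0.04 to 0.37 for MCL1 and -0.20 to 0.08 for PMAIP1. With vehicle, BCL2, BCL2L11 and BBC3 in both assays, PMAIP1 in RNA and BIRC3 in footprints each had a mean under 6 CPM. Whether low counts limit their precision was not tested.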
